A study of Homo sapiens with 18 samples.

Results

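The comparison described here sets control DLD1 cells, a line from a colon adenocarcinoma, against control HUH7 cells, a line from a hepatocellular carcinoma of the liver. It asks how the lines differed in tissue identity, lipid metabolism, stress responses and central metabolism before any gene was knocked out. Each group had 3 libraries of total RNA, described in the design text as biological triplicates. Both groups had been infected with lentiCRISPR v2, a lentiviral vector that carries Cas9 and a guide, with a non-targeting guide (CTRL). Puromycin selection lasted 5 days in both, and RNA was isolated 8 days after infection. All cells grew attached in the same medium with serum, so the controls share the virus, the Cas9, the selection and the medium. Each group is 1 line from 1 tumour, so nothing here separates colon from liver in general. The libraries belong to a series of 18, in which the same lines and a lung line, NCIH838, also carry a guide against KDSR. Genes were chosen by 1 rule, an average of 1 TPM or more in the 6 control libraries, which kept 16763 of the 27166 genes in the deposited table, 12635 of them protein coding. TPM, short for transcripts per 1000000 transcripts, gives a gene's share of the measured RNA after correction for gene length.

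Hepatocytes make most plasma proteins and the lipoproteins that carry lipid in blood, under transcription factors of the HNF, FOXA, CEBP and nuclear receptor families. The epithelium of the colon is renewed from stem cells that depend on Wnt signalling, and its identity is set by CDX factors, of which CDX2 is the best known. Sphingolipid synthesis starts in the endoplasmic reticulum with serine palmitoyltransferase and KDSR, and ceramide synthases then add a fatty acid.

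Depth was 17039634 to 20339678 reads per control library. Across genes, log2 levels correlated at 0.984 to 0.990 (Pearson's r) between libraries of 1 line and at 0.717 to 0.722 between the lines, as a description without a test. HUH7 CTRL replicate 1 stood apart from its group: mitochondrially encoded mRNA made up 11.3% of its TPM, against 6.12% and 7.41% in the other HUH7 libraries, with 7.99%, 5.68% and 5.43% in DLD1. Differences were fitted with limma on log2(TPM + 1) and are given as DLD1 minus HUH7, which understates the difference of genes of low level. In bulk RNA, fewer cells of a type and less RNA per cell cannot be told apart. For a gene at 0 in every library of a line, the size of the log2 difference depends on the added 1. Of the genes tested, 7162 (42.7%) were higher and 5548 (33.1%) lower in DLD1 at an adjusted p under 0.05. By a stricter test against a 2-fold difference, 2080 genes (12.4%) were higher and 2359 (14.1%) lower in DLD1, 26.5% in all. The groups' ranges did not overlap for 74.5% of genes, so a gene that differs is not by itself unusual in this comparison. The median log2 difference over all tested genes was 0.13, and it was 0.00 after median ratio scaling; differences below are read against that median. Below, "differed by more than 2-fold" means an adjusted p under 0.05 in the stricter test, a mean ± SD is over the 3 control libraries of a line, and the printed adjusted p belongs to the stricter test unless stated. Where a list is given with a share in all, the same share over all tested genes was 26.5%. List counts without a fold threshold are to be read beside 42.7% higher and 33.1% lower over all tested genes, 75.8% in all. A gene that "did not pass the test" had an adjusted p of at least 0.05 without a fold threshold.

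**Figure D1:**
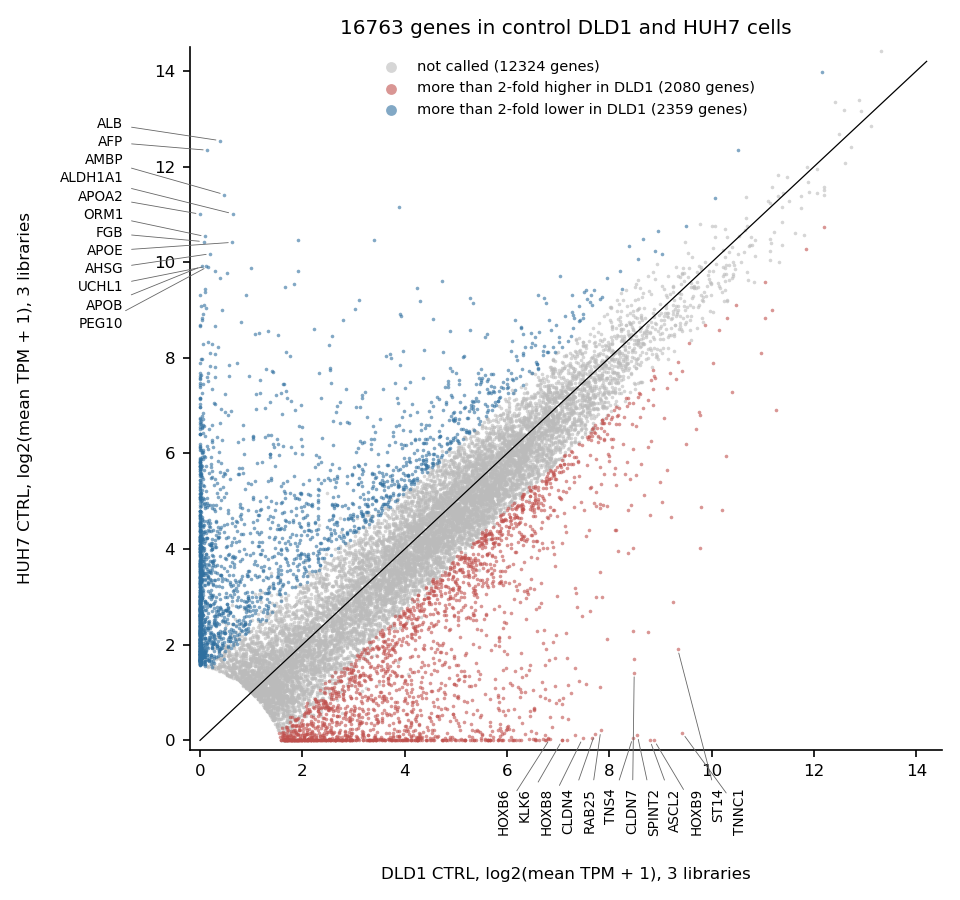
Mean level of each of the 16763 tested genes in DLD1 CTRL (horizontal axis) and HUH7 CTRL (vertical axis), both as log2(mean TPM + 1), with the line of equal levels. Red points are the 2080 genes more than 2-fold higher and blue points the 2359 genes more than 2-fold lower in DLD1; the 12 genes furthest apart in each direction are named and lie near the axes, with ST14 and CLDN7 the furthest from 0 in the other line at 2.76 and 1.67 TPM in HUH7.

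Most of the genes furthest apart were close to silent in 1 of the lines. TNNC1, the calcium-binding troponin of slow and heart muscle, had 666, 678 and 719 TPM in DLD1, against 0.165, 0.170 and 0 TPM in HUH7 (log2 difference 9.28, SE 0.08, adjusted p = 3.42e-20). HOXB9, a homeobox factor of the HOXB cluster, had 454, 473 and 480.0 TPM in DLD1, against 0 TPM in all 3 libraries of HUH7 (log2 difference 8.88, adjusted p = 4.97e-20). ASCL2, a Wnt-dependent factor of intestinal stem cells, had 415, 429.9 and 482 TPM in DLD1, against 0 TPM in all 3 libraries of HUH7 (log2 difference 8.79, adjusted p = 7.64e-21). Every DLD1 library was far above every HUH7 library for these genes. Against a floor of 3 reads over the HUH7 libraries, HOXB9 was at least 6121-fold and ASCL2 at least 4145-fold higher in DLD1. TNNC1 lies on chromosome 3 from 52451102 to 52454070, HOXB9 on chromosome 17 from 48621159 to 48626356 and ASCL2 on chromosome 11 from 2268495 to 2270952 (hg38). The other genes of the 12 with the largest positive differences were SPINT2, TNS4, RAB25, CLDN4, HOXB8, ST14, CLDN7, KLK6 and HOXB6. They hold epithelial protease inhibitors and proteases (SPINT2, ST14, KLK6), claudins of tight junctions (CLDN4, CLDN7), a small GTPase of epithelial recycling endosomes (RAB25), a focal adhesion protein (TNS4) and HOXB genes. TNS4 averaged 351 ± 22.2 TPM in DLD1 and 0.0402 ± 0.0398 TPM in HUH7, and KLK6 averaged 134 ± 6.77 TPM in DLD1 and 0 TPM in HUH7.

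Among the 12 genes with the largest negative differences, 9 encode secreted proteins of the liver or lipoproteins. AFP, the fetal plasma protein, had 0.119, 0.120 and 0.0715 TPM in DLD1, against 4787, 5506 and 5275 TPM in HUH7 (log2 difference -12.20, adjusted p = 4.32e-14). ALB, serum albumin, had 0.230, 0.290 and 0.414 TPM in DLD1, against 5432, 6335 and 6121 TPM in HUH7 (log2 difference -12.15, adjusted p = 8.03e-14). APOA2, a protein of high-density lipoprotein, had 0 TPM in all 3 libraries of DLD1, against 2235, 2098 and 1827 TPM in HUH7 (log2 difference -11.00, adjusted p = 4.38e-15). These genes were among the most abundant of HUH7 and were at or near 0 in every DLD1 library. ALB and AFP are neighbours on chromosome 4 (hg38), ALB from 73397114 to 73421412 and AFP from 73431138 to 73456174. The others were AMBP, ORM1, FGB, AHSG, APOB and APOE, and outside the secreted proteins ALDH1A1, UCHL1 and PEG10. ALDH1A1, an aldehyde dehydrogenase that makes retinoic acid, averaged 0.556 ± 0.0719 TPM in DLD1 and 2066 ± 231 TPM in HUH7. UCHL1, a deubiquitinase abundant in neurons, averaged 0.0913 ± 0.0864 TPM in DLD1 and 964 ± 44.98 TPM in HUH7.

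Plasma proteins of the hepatocyte were at or near 0 in DLD1 for most genes of their list. Of 24 tested genes for secreted hepatocyte proteins, 1 was more than 2-fold higher and 23 more than 2-fold lower in DLD1, 100% in all, with a median log2 difference of -8.60 against 0.13 over all genes and -8.98 with genes without reads at their bound. Together the list held 0.00361% ± 1.73e-04 of the summed TPM in DLD1 and 2.69% ± 0.105 in HUH7. SERPINA1 and TTR were named after their values were seen. SERPINA1, the main plasma inhibitor of neutrophil elastase, averaged 13.9 ± 0.685 TPM in DLD1 and 2283 ± 212 TPM in HUH7. TTR, the carrier of thyroid hormone and retinol-binding protein, had 0 TPM in DLD1 and 141 ± 12.03 TPM in HUH7. Against the rest of the list, TTPA, the hepatic carrier of vitamin E, had 13.8, 14.19 and 12.5 TPM in DLD1, against 3.64, 4.66 and 3.28 TPM in HUH7, with no overlap between the lines (log2 difference 1.58, adjusted p = 0.00166, and 0.0757 with a pseudocount of 0.1).

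Complement and coagulation genes, which are also made by the liver, followed with 30 genes tested, of which 1 was more than 2-fold higher and 27 more than 2-fold lower in DLD1, 93.3% in all (median -4.05, and -4.97 with genes without reads at their bound). C3, the central complement protein, averaged 0.0701 ± 0.0699 TPM in DLD1 and 662 ± 16.1 TPM in HUH7. F2, prothrombin, averaged 0.107 ± 0.0410 TPM in DLD1 and 204 ± 11.3 TPM in HUH7. F12, the coagulation factor of contact activation, went the other way at 11.2 ± 1.27 TPM in DLD1 and 0.831 ± 0.132 TPM in HUH7 (log2 difference 2.73, adjusted p = 8.47e-09). C8G, a chain of the terminal complement complex, did not pass the test at adjusted p under 0.05 (1.90 ± 0.906 TPM in DLD1 and 1.89 ± 0.358 TPM in HUH7).

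The promoter of AHSG is printed because it holds the letters CAAAGTCCA, part of the site of HNF4 factors, which are counted below over all promoters. It is a stretch of 100 bases from RefSeq (GRCh38.p14, chr3:186612810-186612909, plus strand), 5′ to 3′, with the element in capitals as TGGACTTTG, its form on the other strand. The stretch ends before the start of the gene in GENCODE 29 (186612923), which lies upstream of the start that RefSeq gives.
AHSG: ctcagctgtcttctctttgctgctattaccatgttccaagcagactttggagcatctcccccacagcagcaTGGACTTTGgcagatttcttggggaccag
The TATA box TATAAA was found on either strand in 6 of 24 promoters of the secreted hepatocyte list with an entry and in 2 of 26 of the complement and coagulation list, over windows of 250 bases before to 50 after the start in RefSeq, which can differ from the gene starts of GENCODE 29 printed here. It was found in 9.87% of 1490 promoters of genes more than 2-fold lower in DLD1, 6.73% of 1353 of genes more than 2-fold higher, 5.14% of 7633 of tested genes with neither call and 12.1% of all 27305 promoters. CAAAGTCCA was found in 0.872%, 0.443%, 0.210% and 0.374% in the same order, which are 13, 6, 16 and 102 promoters. By list, it was in 1 of 24 promoters of the secreted hepatocyte list and 1 of 26 of the complement and coagulation list. It was also in 2 of 20 promoters of intestinal epithelial genes, so it was not a common trait of the hepatocyte lists. For the CDX element TTTATNG, whose letters can overlap the TATA box, the shares were 7.52%, 6.58%, 5.74% and 10.1%. They were 1.61%, 1.70%, 1.38% and 2.66% for the TCF element ATCAAAG, and 0.201%, 0.0739%, 0.197% and 0.125% for the C/EBP element TTGCGCAA. The C/EBP shares are 3, 1, 15 and 34 promoters. The share for the TATA box among genes lower in DLD1 was below that over all promoters and above that of tested genes with neither call. The part of base composition in these shares was not tested. A match is a description of the letters and not a bound site. Promoters were matched by symbol for 10477 of the tested genes.

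Transcription factors of the hepatocyte were mostly lower in DLD1, with exceptions among FOXA, GATA and TBX members. Of 21 tested, 3 were more than 2-fold higher and 15 more than 2-fold lower in DLD1, 85.7% in all (median -3.93). NR1H4, the bile acid receptor FXR, had 0 TPM in all 3 libraries of DLD1, against 133, 144 and 143 TPM in HUH7 (log2 difference -7.14, adjusted p = 4.76e-18). GATA4, a zinc finger factor of endoderm, had 0 TPM in all 3 libraries of DLD1, against 112, 94.1 and 95.1 TPM in HUH7 (log2 difference -6.66, adjusted p = 1.98e-18). No read was counted for NR1H4 or GATA4 in any control library of DLD1. ONECUT1, a cut-homeodomain factor also called HNF6, averaged 0 TPM in DLD1 and 26.0 ± 2.21 TPM in HUH7. TOX3, an HMG-box factor, averaged 0 TPM in DLD1 and 52.5 ± 1.49 TPM in HUH7. CREB3L3, a membrane-bound factor of the liver's lipid and acute-phase genes, averaged 0.0870 ± 0.151 TPM in DLD1 and 52.1 ± 7.46 TPM in HUH7.

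Other factors of the list were present in both lines at different levels. HNF4A, a nuclear receptor at the top of the hepatocyte network that is also used in gut, averaged 32.8 ± 1.36 TPM in DLD1 and 134 ± 4.21 TPM in HUH7 (log2 difference -2.00, adjusted p = 1.77e-10). CEBPA, a bZIP factor of differentiated hepatocytes, averaged 14.15 ± 2.16 TPM in DLD1 and 465 ± 39.7 TPM in HUH7. The forkhead factor FOXA2, which opens liver chromatin, averaged 13.04 ± 1.09 TPM in DLD1 and 176 ± 21.1 TPM in HUH7, and its relative FOXA3 averaged 7.23 ± 0.769 TPM in DLD1 and 125 ± 13.3 TPM in HUH7. NR5A2, a nuclear receptor of bile acid and cholesterol genes, averaged 0.779 ± 0.237 TPM in DLD1 and 47.4 ± 5.23 TPM in HUH7, and PROX1, a homeobox factor of early liver, averaged 5.10 ± 0.319 TPM in DLD1 and 101.3 ± 17.0 TPM in HUH7. The 3 factors more than 2-fold higher in DLD1 were FOXA1, GATA6 and TBX3. FOXA1, another forkhead factor, averaged 402 ± 9.85 TPM in DLD1 and 123 ± 2.53 TPM in HUH7. GATA6, an endoderm factor, averaged 101.1 ± 5.70 TPM in DLD1 and 22.7 ± 1.91 TPM in HUH7. TBX3, a T-box factor, averaged 118 ± 5.06 TPM in DLD1 and 47.8 ± 1.59 TPM in HUH7, though it did not pass the 2-fold test after median ratio scaling. CEBPB, the inducible relative of CEBPA, did not pass it at 118 ± 9.35 TPM in DLD1 and 92.6 ± 4.42 TPM in HUH7. FOXA1 and GATA6 stood in the opposite order to FOXA2, FOXA3 and GATA4 between the lines.

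**Figure D2:**
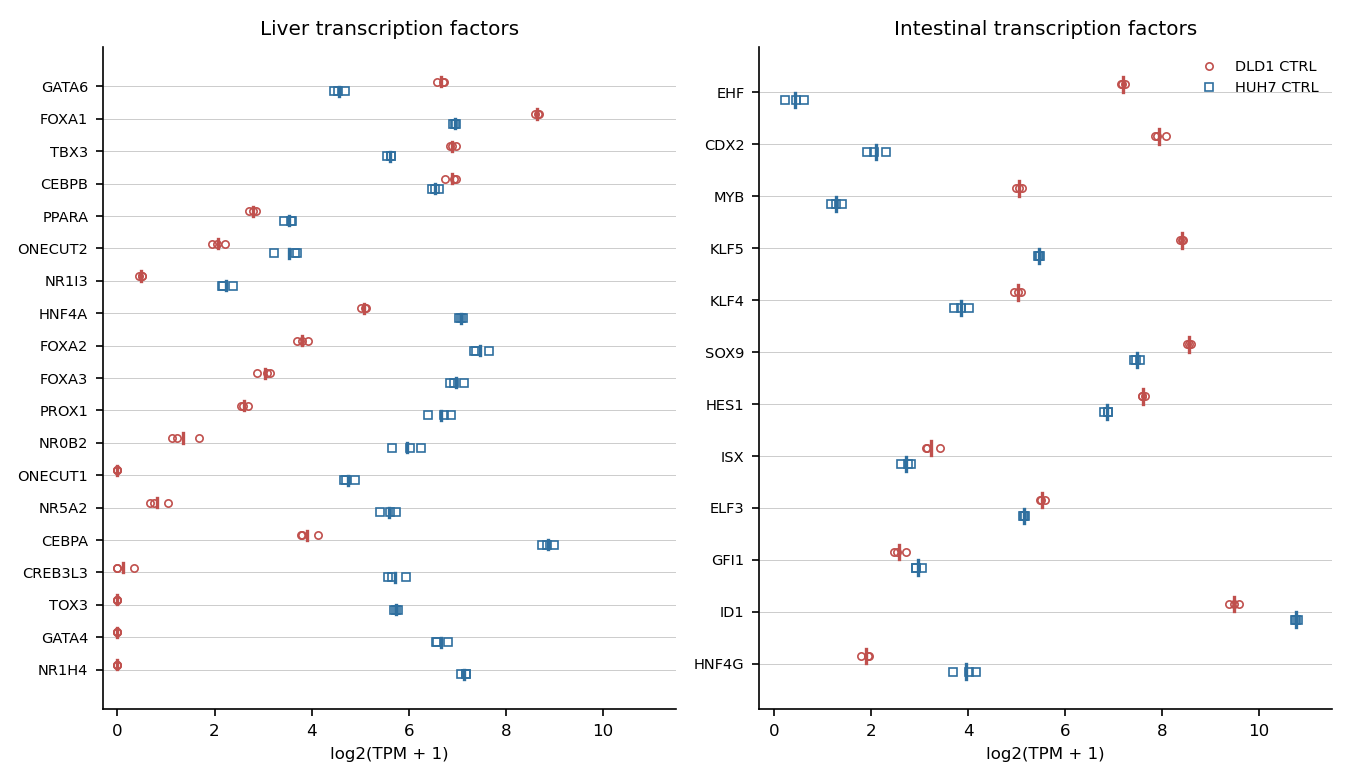
Levels of tested liver (left panel) and intestinal (right panel) transcription factors as log2(TPM + 1), 1 point per control library, circles for DLD1 CTRL and squares for HUH7 CTRL, with a bar at the mean. NR1H4, GATA4, TOX3 and ONECUT1 lie at 0 in all DLD1 libraries, while EHF, CDX2 and MYB lie above 4 in DLD1 and below 3 in HUH7.

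Intestinal transcription factors were higher in DLD1 for 5 of 13 genes by more than 2-fold and lower for 2, 53.8% in all (median 1.07). CDX2, the homeobox factor that specifies intestine, had 231, 235 and 271 TPM in DLD1, against 3.98, 2.80 and 3.17 TPM in HUH7 (log2 difference 5.84, adjusted p = 2.58e-17). It lies on chromosome 13 from 27962137 to 27971139 (hg38). EHF, an ETS factor of epithelia, had 142, 150.4 and 142 TPM in DLD1, against 0.528, 0.181 and 0.366 TPM in HUH7 (log2 difference 6.76, adjusted p = 3.41e-18). The groups did not overlap for these genes, and CDX2 was not silent in HUH7. KLF5, a factor of proliferating crypt cells, averaged 338 ± 8.16 TPM in DLD1 and 43.2 ± 0.398 TPM in HUH7, and MYB, a factor of progenitor cells, averaged 32.2 ± 1.35 TPM in DLD1 and 1.44 ± 0.183 TPM in HUH7. SOX9, a factor of crypt progenitors, averaged 374 ± 11.3 TPM in DLD1 and 177 ± 7.28 TPM in HUH7, and ELF3, an ETS factor of epithelia, averaged 45.1 ± 1.94 TPM in DLD1 and 34.8 ± 0.417 TPM in HUH7; neither passed the 2-fold test. HNF4G, the gut-enriched paralog of HNF4A, was lower at 2.72 ± 0.216 TPM in DLD1 and 14.7 ± 2.497 TPM in HUH7 (log2 difference -2.06, adjusted p = 9.37e-08), as was ID1, an inhibitor of basic helix-loop-helix factors, at 717 ± 48.6 TPM in DLD1 and 1735 ± 33.8 TPM in HUH7. CDX1, the paralog of CDX2, and SPDEF, a factor of goblet cells, did not reach the 1 TPM filter, with CDX1 at 1.25 ± 0.596 TPM in DLD1 and 0 TPM in HUH7.

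Of 25 tested genes for products of intestinal cells, 13 were more than 2-fold higher and 6 more than 2-fold lower in DLD1, 76.0% in all. AGR2, a disulfide isomerase of mucus-secreting cells, had 871, 908 and 831 TPM in DLD1, against 14.4, 16.4 and 15.2 TPM in HUH7 (log2 difference 5.74, adjusted p = 1.50e-16). CDH17, the liver-intestine cadherin, averaged 224 ± 8.08 TPM in DLD1 and 10.5 ± 1.19 TPM in HUH7, and KRT20, a keratin of differentiated colon epithelium, averaged 44.2 ± 1.83 TPM in DLD1 and 0.0349 ± 0.0604 TPM in HUH7. In the other direction, FABP1, the fatty acid binding protein of liver and small intestine, had 0, 0 and 0.0943 TPM in DLD1, against 71.9, 62.0 and 59.2 TPM in HUH7 (log2 difference -5.98, adjusted p = 1.17e-17). CEACAM1, an adhesion protein of epithelia and liver, averaged 0.766 ± 0.104 TPM in DLD1 and 51.1 ± 2.06 TPM in HUH7. 

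The labels were checked against markers. Colon markers summed to 1934, 1983 and 1860 TPM in DLD1, against 188.5, 204.0 and 207 TPM in HUH7, with 7 of 9 tested genes more than 2-fold higher in DLD1 and 1, VIL1, lower. VIL1, a bundler of actin in microvilli, averaged 16.1 ± 0.631 TPM in DLD1 and 111 ± 2.46 TPM in HUH7 (log2 difference -2.71, adjusted p = 1.98e-14). GPA33, CEACAM6 and CDX1, also defining markers of colon epithelium, were below the filter, with GPA33 at 0.569 ± 0.177 TPM in DLD1 and 0 TPM in HUH7 and CEACAM6 at 1.71 ± 0.189 TPM in DLD1 and 0 TPM in HUH7. The hepatocyte markers summed to 45.7, 48.6 and 49.9 TPM in DLD1, against 22096, 23856 and 22902 TPM in HUH7, and all 15 were more than 2-fold lower in DLD1. Lung epithelium markers summed to at most 1.90 TPM in any control library of either line. Of mucins, MUC20 and MUC5AC were more than 2-fold higher in DLD1 (10.2 ± 1.58 TPM in DLD1 and 0.00369 ± 0.00639 TPM in HUH7 for MUC5AC, the mucin of gastric surface cells), and MUC15 was lower (0 TPM in DLD1 and 22.4 ± 1.06 TPM in HUH7); MUC2, the main colonic mucin, was below the filter. MUC2 and VIL1, and the genes below the filter named here and in the paragraphs on the urea cycle and drug metabolism, were named after their values were seen.

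Wnt targets and stem cell genes of the crypt had the largest share of members more than 2-fold higher in DLD1 among the lists described. Of 21 tested, 16 were more than 2-fold higher and 3 more than 2-fold lower in DLD1, 90.5% in all (median 2.59, and 2.69 with genes without reads at their bound). The destruction complex that restrains Wnt signalling is known to be defective in DLD1, and its part in these values was not tested. AXIN2, a feedback inhibitor and common readout of the pathway, had 338, 345 and 373 TPM in DLD1, against 3.99, 3.31 and 4.34 TPM in HUH7 (log2 difference 6.18, adjusted p = 1.13e-15). LEF1, a DNA-binding partner of beta-catenin, averaged 81.1 ± 2.98 TPM in DLD1 and 1.02 ± 0.0987 TPM in HUH7, and EPHB3, an ephrin receptor that sorts cells along the crypt, averaged 40.3 ± 4.63 TPM in DLD1 and 0.145 ± 0.0904 TPM in HUH7. Both genes averaged close to 1 TPM or below in HUH7. DKK1, a secreted inhibitor of Wnt receptors, had 0, 0 and 0.106 TPM in DLD1, against 99.4, 106 and 109.7 TPM in HUH7 (log2 difference -6.68, adjusted p = 7.07e-17). PROM1, the surface protein CD133, averaged 2.94 ± 0.198 TPM in DLD1 and 128 ± 15.5 TPM in HUH7, and LGR4, a receptor of R-spondins, averaged 9.45 ± 0.614 TPM in DLD1 and 94.7 ± 11.7 TPM in HUH7. DKK1, PROM1 and LGR4 were the 3 members more than 2-fold lower in DLD1.

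Epithelial junction genes were also higher in DLD1 as a rule, with 35 tested, of which 21 were more than 2-fold higher and 3 more than 2-fold lower in DLD1, 68.6% in all (median 2.41). CLDN4, a claudin of tight epithelia, averaged 209 ± 12.9 TPM in DLD1 and 0.0974 ± 0.0618 TPM in HUH7, and RAB25 227 ± 12.4 TPM in DLD1 and 0.155 ± 0.179 TPM in HUH7. CLDN1, another claudin, was lower with 10.1, 8.29 and 10.2 TPM in DLD1, against 1287, 1506 and 1445 TPM in HUH7 (log2 difference -7.07, adjusted p = 5.53e-19). CLDN6, a claudin of embryonic epithelia, averaged 0.224 ± 0.224 TPM in DLD1 and 222 ± 4.77 TPM in HUH7, and GJB1, the gap junction protein of hepatocytes, averaged 0.194 ± 0.119 TPM in DLD1 and 29.5 ± 3.29 TPM in HUH7. Different claudins were thus higher in each line. Among cadherins, CDH2, N-cadherin, made up 0.205% ± 0.0474 in DLD1 and 70.9% ± 1.66 in HUH7 of the summed TPM of CDH2 and CDH1, E-cadherin. CDH1 itself had 524, 561 and 595 TPM in DLD1, against 46.2, 54.1 and 48.3 TPM in HUH7 (log2 difference 3.47, adjusted p = 2.48e-13), and no library of either line fell within the range of the other. Of 7 tested keratins, 4 were more than 2-fold higher and 1 lower in DLD1, 71.4% in all. KRT8 and KRT18, the keratin pair of simple epithelia, did not pass the test without a fold threshold, at 2515 ± 195 TPM in DLD1 and 2657 ± 56.6 TPM in HUH7 for KRT8 and 2698 ± 81.6 TPM in DLD1 and 2777 ± 62.7 TPM in HUH7 for KRT18, although both did, as lower in DLD1, after median ratio scaling.

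Genes of the mesenchymal state were lower in DLD1, with 17 tested, of which 1 was more than 2-fold higher and 13 more than 2-fold lower in DLD1, 82.4% in all (median -2.90). VIM, the intermediate filament vimentin, had 0.0377, 0.418 and 0.226 TPM in DLD1, against 804, 943 and 939.6 TPM in HUH7 (log2 difference -9.52, adjusted p = 1.21e-18). FN1, fibronectin, which hepatocytes also secrete into plasma, averaged 2.58 ± 0.213 TPM in DLD1 and 746 ± 40.2 TPM in HUH7. COL4A2, a collagen of basement membranes, was the exception at 6.67 ± 0.239 TPM in DLD1 and 0.0477 ± 0.0107 TPM in HUH7 (log2 difference 2.87, adjusted p = 1.57e-13). Fibroblast markers moved with this list. The 7 fibroblast markers summed to 1.64, 1.17 and 1.35 TPM in DLD1, against 477, 581 and 625 TPM in HUH7, and the 6 tested were more than 2-fold lower in DLD1. Most of the sum was LUM, a matrix proteoglycan, at 0.0215 ± 0.0373 TPM in DLD1 and 441 ± 71.5 TPM in HUH7. COL1A2 and COL1A1, the chains of type I collagen, averaged 0.0245 ± 0.00938 TPM in DLD1 and 63.5 ± 2.58 TPM in HUH7 for COL1A2 and 0.382 ± 0.123 TPM in DLD1 and 33.1 ± 1.997 TPM in HUH7 for COL1A1. DCN, a close relative of LUM, was below the filter at 0.0101 ± 0.00877 TPM in DLD1 and 0.447 ± 0.0894 TPM in HUH7. Markers of blood cells summed to 4.95, 4.59 and 5.89 TPM in DLD1, against 7.28, 4.92 and 4.23 TPM in HUH7, and PTPRC, which defines leukocytes, averaged 0.00712 ± 0.0123 TPM in DLD1 and 0.432 ± 0.120 TPM in HUH7, and CD3E, a T cell marker, averaged 0.0273 ± 0.0473 TPM in DLD1 and 0.187 ± 0.148 TPM in HUH7. Endothelial markers summed to at most 2.45 TPM in any of these libraries. LYZ, a lysozyme of macrophages and Paneth cells, was at 0.0367 ± 0.0636 TPM in DLD1 and 173 ± 19.4 TPM in HUH7. The part of such cells in the mesenchymal list was not tested.

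Laminins and integrins, which fix epithelial cells to the basement membrane, differed by subunit. Of 21 tested, 9 were more than 2-fold higher and 3 more than 2-fold lower in DLD1, 57.1% in all. ITGB4, the integrin subunit of hemidesmosomes, had 109, 120.2 and 136 TPM in DLD1, against 1.37, 1.30 and 0.951 TPM in HUH7 (log2 difference 5.80, adjusted p = 7.02e-15). LAMB3 and LAMA3, chains of the epithelial laminin that it binds, averaged 106 ± 9.25 TPM in DLD1 and 0.0854 ± 0.0857 TPM in HUH7 for LAMB3 and 20.2 ± 0.778 TPM in DLD1 and 0.853 ± 0.0469 TPM in HUH7 for LAMA3. ITGA5 and ITGB1, which pair as the fibronectin receptor, were more than 2-fold lower in DLD1, at 19.5 ± 2.19 TPM in DLD1 and 73.3 ± 1.97 TPM in HUH7 for ITGA5 and 197 ± 7.27 TPM in DLD1 and 637 ± 68.2 TPM in HUH7 for ITGB1.

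HOX genes, the homeobox factors that record position along the body axis, differed by cluster. Over 30 tested HOX genes the median was 2.16, and 2.42 with genes without reads at their bound. Of these 30, 17 were more than 2-fold higher and 6 more than 2-fold lower in DLD1, 76.7% in all. The HOXB cluster (chromosome 17 from 48540894 to 48729178, hg38) summed to 1087, 1079 and 1133 TPM in DLD1, against 1.48, 1.08 and 1.52 TPM in HUH7. All 9 of its genes in the table were more than 2-fold higher in DLD1, and 5 of them had no read in any HUH7 control library. The HOXC cluster (chromosome 12 from 53938765 to 54056030) ran the other way, with sums of 10.0, 8.67 and 9.26 TPM in DLD1, against 185.3, 172 and 164.5 TPM in HUH7, and 6 of 7 tested genes more than 2-fold lower in DLD1. HOXC10 averaged 1.53 ± 0.334 TPM in DLD1 and 82.8 ± 4.86 TPM in HUH7, and HOXC13 0 TPM in DLD1 and 28.4 ± 2.21 TPM in HUH7. The HOXA cluster (chromosome 7 from 27092993 to 27200106) was on in both lines, with sums of 537, 531 and 523 TPM in DLD1, against 99.5, 107 and 95.1 TPM in HUH7. Within it, 6 of 11 genes were more than 2-fold higher in DLD1, and HOXA13, the gene of the most posterior positions, had 136, 143 and 123 TPM in DLD1, against 0.570, 0.704 and 0.830 TPM in HUH7 (log2 difference 6.31, adjusted p = 2.86e-17). The genes HOXA2, HOXA3, HOXA4 and HOXA7 did not pass the 2-fold test and were named after their values were seen, with log2 differences of 0.62, 0.24, -0.91 and 0.91. The HOXD cluster (chromosome 2 from 176092891 to 176190907) had sums of 14.7 to 17.7 TPM in DLD1 and 3.20 to 4.60 TPM in HUH7. Of its 3 tested genes, 2 were more than 2-fold higher in DLD1.

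**Figure D3:**
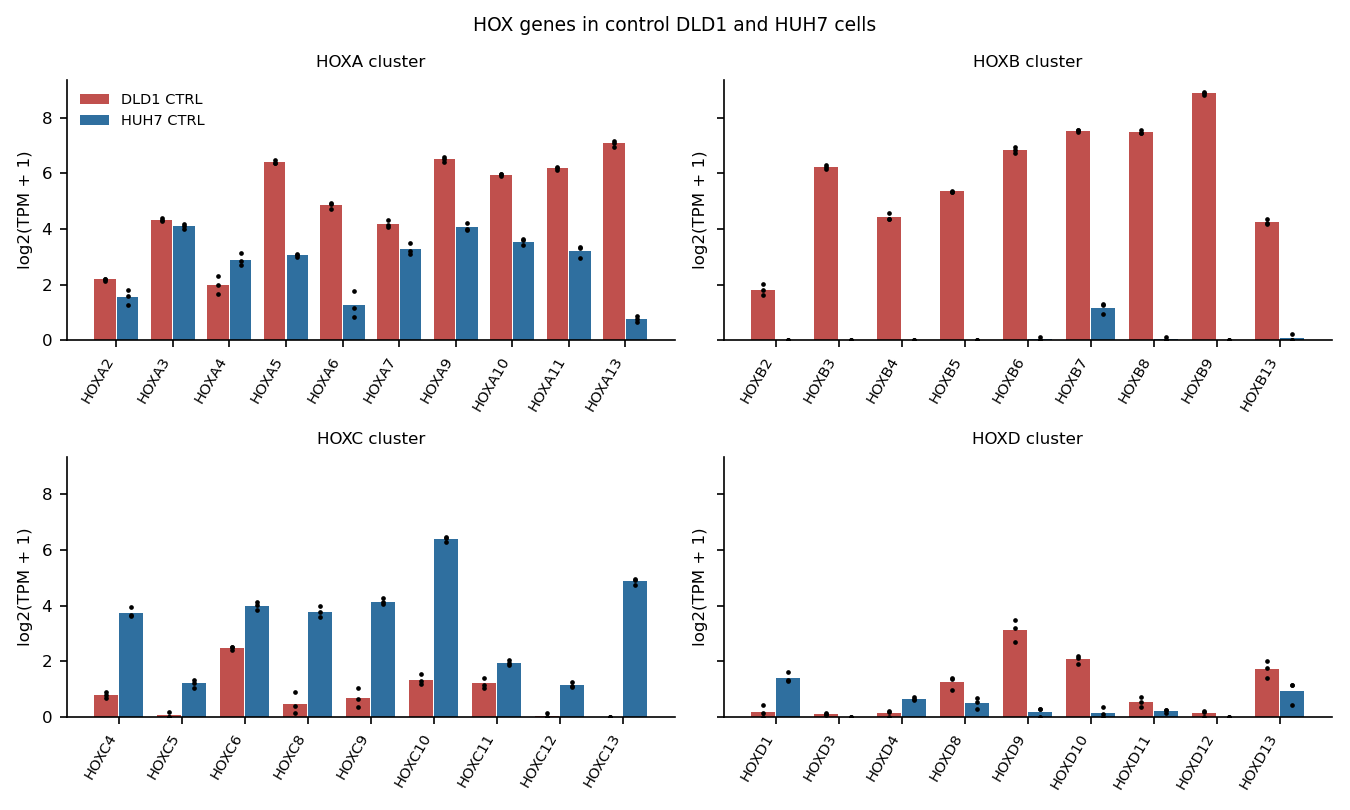
Levels of HOX genes in the deposited table as log2(TPM + 1), in panels by cluster and ordered by paralog number, with bars at the mean of 3 control libraries (DLD1 CTRL left of HUH7 CTRL) and points for the libraries. HOXB genes show bars in DLD1 alone apart from traces in HUH7, HOXC genes are higher in HUH7, and HOXA genes are present in both.

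Oncofetal and imprinted genes were mostly lower in DLD1, with 19 tested, of which 4 were more than 2-fold higher and 11 more than 2-fold lower in DLD1, 78.9% in all. GPC3, a glypican of fetal liver and liver cancer, had 1.004, 0.795 and 1.20 TPM in DLD1, against 897, 989 and 945 TPM in HUH7 (log2 difference -8.89, adjusted p = 2.57e-17). LIN28B, a repressor of let-7 microRNAs, averaged 0 TPM in DLD1 and 190.2 ± 33.8 TPM in HUH7, and IGF2BP1, an RNA-binding protein of the fetus, averaged 0.150 ± 0.0215 TPM in DLD1 and 275 ± 24.6 TPM in HUH7. PEG10, a paternally expressed gene derived from a retrotransposon, averaged 0.111 ± 0.0383 TPM in DLD1 and 959 ± 116 TPM in HUH7. H19, a maternally expressed long RNA, was higher at 229.5 ± 20.8 TPM in DLD1 and 7.04 ± 1.53 TPM in HUH7 (log2 difference 4.86, adjusted p = 1.40e-13), as was CDKN1C, an imprinted inhibitor of cyclin-dependent kinases, at 15.8 ± 1.98 TPM in DLD1 and 0.346 ± 0.126 TPM in HUH7. Of cancer testis genes, MAGEB2 and PRAME were the members past the filter, and both were lower in DLD1 (0.0406 ± 0.0703 TPM in DLD1 and 64.1 ± 2.38 TPM in HUH7 for MAGEB2).

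**Figure D4:**
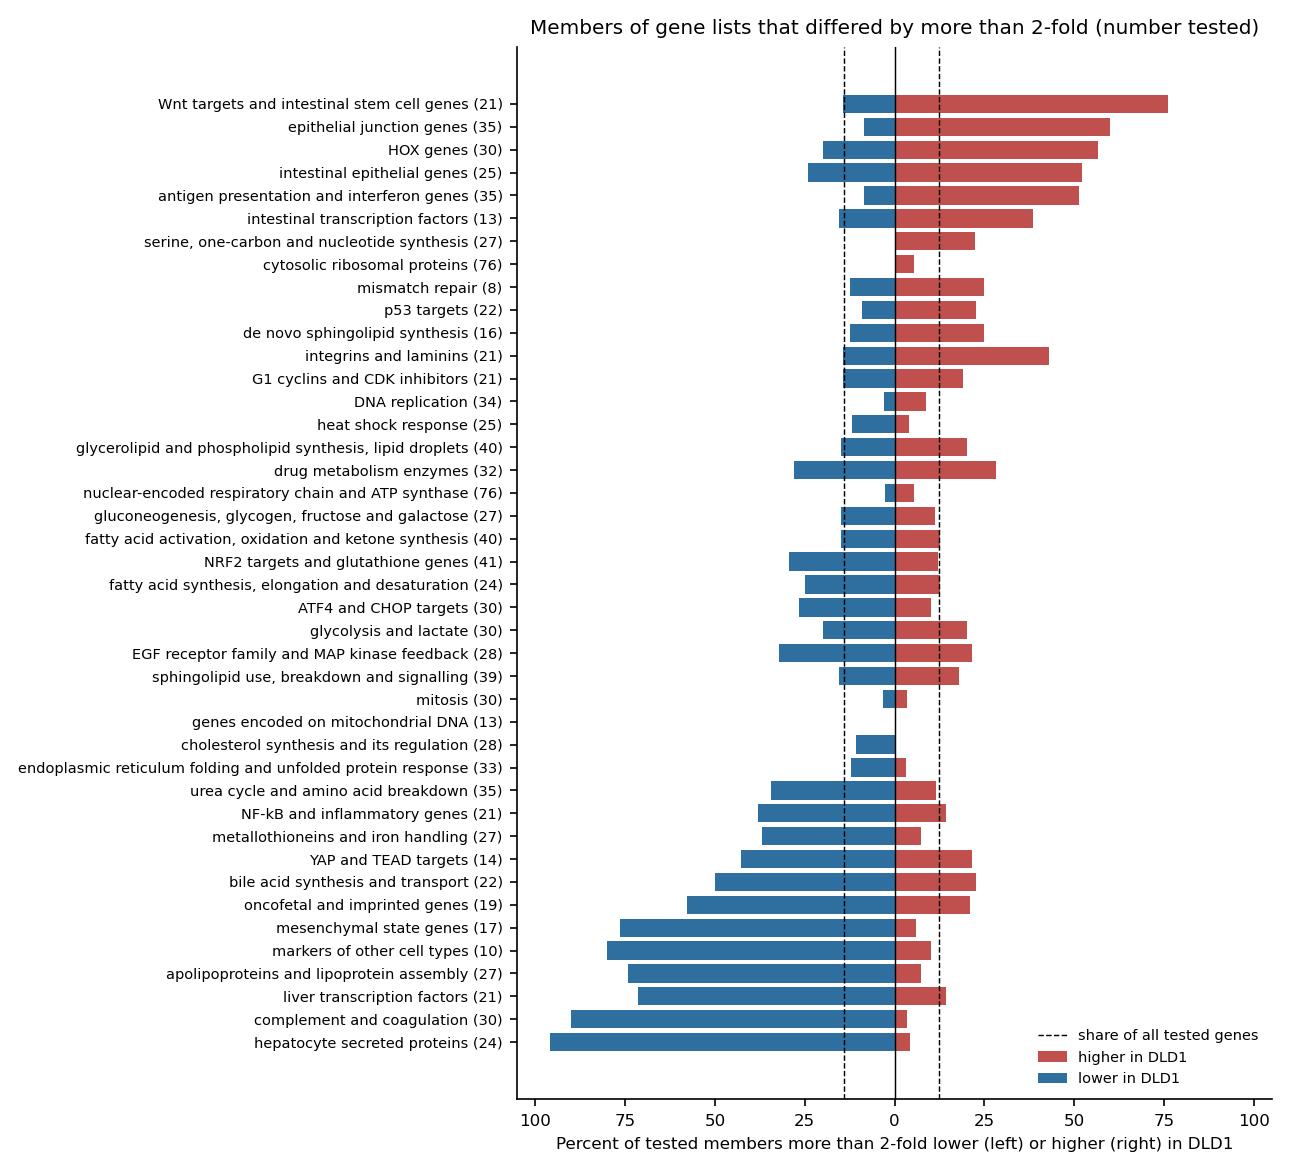
Share of tested members of each gene list that were more than 2-fold higher (red, to the right) or lower (blue, to the left) in DLD1, in percent, with the number tested in brackets and lists ordered by median log2 difference. Dashed lines give the shares over all tested genes, 12.4% higher and 14.1% lower; hepatocyte lists lie far past the left line, Wnt targets and junction genes far past the right line, and mitosis, respiratory chain and mitochondrial genes inside both.

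Lipoprotein genes gave the clearest lipid difference. Of 27 tested genes for apolipoproteins and lipoprotein assembly, 2 were more than 2-fold higher and 20 more than 2-fold lower in DLD1, 81.5% in all (median -3.47, and -4.33 with genes without reads at their bound). APOB, the scaffold of very low-density lipoprotein, had 0, 0 and 0.0628 TPM in DLD1, against 753, 958 and 1175 TPM in HUH7 (log2 difference -9.86, adjusted p = 8.64e-18). APOE, a ligand of lipoprotein receptors, had 0.976, 0.358 and 0.319 TPM in DLD1, against 1482, 1350.5 and 1259 TPM in HUH7 (log2 difference -9.80, adjusted p = 2.88e-17). APOA1, the main protein of high-density lipoprotein, averaged 0 TPM in DLD1 and 206 ± 9.29 TPM in HUH7. APOC3, an inhibitor of lipoprotein lipase, averaged 0 TPM in DLD1 and 106 ± 7.70 TPM in HUH7. LIPG, endothelial lipase, was higher at 25.6 ± 1.34 TPM in DLD1 and 2.99 ± 0.502 TPM in HUH7 (log2 difference 2.75, adjusted p = 6.68e-11), and so was APOL1, a trypanolytic apolipoprotein, at 14.52 ± 2.06 TPM in DLD1 and 1.56 ± 0.189 TPM in HUH7. SAR1B, a GTPase of vesicles that carry large lipoproteins, did not pass the test (20.1 ± 1.39 TPM in DLD1 and 22.5 ± 3.35 TPM in HUH7).

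Of 22 tested bile acid genes, 5 were more than 2-fold higher and 11 more than 2-fold lower in DLD1, 72.7% in all. FGFR4 and its partner KLB, which together receive the gut hormone FGF19, averaged 3.69 ± 0.657 TPM in DLD1 and 388 ± 23.8 TPM in HUH7 for FGFR4 and 0.465 ± 0.0281 TPM in DLD1 and 111 ± 8.07 TPM in HUH7 for KLB. FGF19 itself, made by ileum in the body, averaged 0.505 ± 0.124 TPM in DLD1 and 43.1 ± 0.859 TPM in HUH7. Ligand, receptor and co-receptor were thus all more than 2-fold lower in DLD1. CYP27A1, a sterol hydroxylase of bile acid synthesis, averaged 0.195 ± 0.172 TPM in DLD1 and 20.0 ± 0.977 TPM in HUH7, and ABCC2, an export pump of the bile canaliculus, averaged 0.678 ± 0.0466 TPM in DLD1 and 74.3 ± 6.82 TPM in HUH7. SLC27A2, a very long-chain acyl-CoA synthetase, was higher with 113, 110.4 and 101.3 TPM in DLD1, against 2.55, 2.63 and 3.08 TPM in HUH7 (log2 difference 4.86, adjusted p = 1.67e-14).

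Of 28 tested genes of cholesterol synthesis, 3 differed by more than 2-fold, all lower in DLD1, which is 10.7% against 26.5% of all genes (median -0.24 against 0.13). They were MVD, EBP and PMVK, and PMVK did not pass without HUH7 CTRL replicate 3, without DLD1 CTRL replicate 1 or in the fit of the 6 control libraries alone. MVD, the decarboxylase that makes isopentenyl diphosphate, averaged 43.9 ± 1.93 TPM in DLD1 and 184 ± 16.1 TPM in HUH7 (log2 difference -2.04, adjusted p = 5.78e-08). At an adjusted p under 0.05 without a fold threshold, 5 were higher and 15 lower in DLD1 (4 and 18 after median ratio scaling). FDFT1, squalene synthase, was the member furthest in the other direction at 359 ± 8.28 TPM in DLD1 and 174 ± 1.47 TPM in HUH7 (log2 difference 1.04; adjusted p = 1.36e-10 without a fold threshold). INSIG1, a sterol-dependent brake on the pathway, averaged 232 ± 11.99 TPM in DLD1 and 219 ± 16.8 TPM in HUH7 and did not pass the test.

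The largest differences in fatty acid synthesis were in enzymes that build polyunsaturated chains. Of 24 tested genes of fatty acid synthesis, elongation and desaturation, 3 were more than 2-fold higher and 6 more than 2-fold lower in DLD1, 37.5% in all (median 0.08, and -0.07 after median ratio scaling). ELOVL5, an elongase of polyunsaturated fatty acids, had 0.0510, 0.103 and 0.122 TPM in DLD1, against 168, 209.6 and 203 TPM in HUH7 (log2 difference -7.47, adjusted p = 8.99e-18). ELOVL2, the elongase of the longer polyunsaturated chains, had 0 TPM in all 3 libraries of DLD1, against 144, 179 and 177 TPM in HUH7 (log2 difference -7.38, adjusted p = 4.56e-18). FADS2, the first desaturase of that route, had 6.35, 7.66 and 7.56 TPM in DLD1, against 543, 520.4 and 489.5 TPM in HUH7 (log2 difference -5.99, adjusted p = 1.15e-17). FADS1, the next desaturase, averaged 2.62 ± 0.102 TPM in DLD1 and 119 ± 8.16 TPM in HUH7. These 4 enzymes were below 8 TPM in DLD1 and above 100 TPM in HUH7. SCD, the desaturase that makes oleate, averaged 1068 ± 40.6 TPM in DLD1 and 2587 ± 159.8 TPM in HUH7 (log2 difference -1.27, adjusted p = 4.59e-04). SCD5, its paralog, averaged 23.8 ± 0.635 TPM in DLD1 and 0.413 ± 0.0706 TPM in HUH7. FASN, the synthase of palmitate, averaged 661 ± 88.6 TPM in DLD1 and 824 ± 51.2 TPM in HUH7 and did not pass the 2-fold test; it was chosen for naming once its values were seen. ACACA, which makes the malonyl-CoA that FASN uses, did not pass it either, at 78.2 ± 4.38 TPM in DLD1 and 46.0 ± 2.40 TPM in HUH7. HSD17B12, a reductase of the common elongation cycle, did not pass the test without a fold threshold at 42.2 ± 3.997 TPM in DLD1 and 41.05 ± 7.50 TPM in HUH7.

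Genes that activate fatty acids differed by isoenzyme. ACSL5, a long-chain acyl-CoA synthetase of intestine, had 122, 124 and 125 TPM in DLD1, against 1.003, 0.611 and 0.522 TPM in HUH7 (log2 difference 6.20, adjusted p = 5.71e-17). Its share of the summed TPM of ACSL5 and ACSL1 was 81.2% ± 1.04 in DLD1 and 1.78% ± 0.864 in HUH7. ACSL4, the isoenzyme that prefers arachidonate, had 38.1, 42.9 and 37.03 TPM in DLD1, against 469, 634 and 594 TPM in HUH7 (log2 difference -3.80, adjusted p = 2.95e-13), and its share with ACSL3 was 25.8% ± 0.893 in DLD1 and 71.6% ± 1.78 in HUH7. The libraries of each line lay close together for both shares. Over the 40 tested genes of activation, oxidation and ketone synthesis, 5 were more than 2-fold higher and 6 more than 2-fold lower in DLD1, 27.5% in all, against 26.5% of all genes. ACAA2, the last enzyme of mitochondrial beta-oxidation, averaged 365 ± 4.50 TPM in DLD1 and 45.6 ± 2.53 TPM in HUH7, and CPT1A, which admits fatty acids to mitochondria, averaged 29.4 ± 1.49 TPM in DLD1 and 30.6 ± 2.81 TPM in HUH7 and did not pass the test. FABP1, described above as an intestinal gene, made up 0.0331% ± 0.0573 in DLD1 and 45.2% ± 6.51 in HUH7 of the summed TPM with FABP5, the epidermal form.

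Among genes of glycerolipids and lipid droplets, 40 were tested and 8 were more than 2-fold higher and 6 more than 2-fold lower in DLD1, 35% in all. PLIN2, the coat protein of lipid droplets in most cells, had 0.535, 0.385 and 0.550 TPM in DLD1, against 217, 240.0 and 231 TPM in HUH7 (log2 difference -7.27, adjusted p = 3.42e-20). DGAT2, an enzyme of triglyceride synthesis, made up 4.23% ± 0.656 in DLD1 and 50.8% ± 1.71 in HUH7 of the summed TPM with DGAT1, the unrelated enzyme of the same step. LPCAT2, which remodels phosphatidylcholine, had 34.8, 36.1 and 34.2 TPM in DLD1, against 0 TPM in all 3 libraries of HUH7 (log2 difference 5.17, adjusted p = 4.06e-18). LIPE, hormone-sensitive lipase, averaged 8.15 ± 0.896 TPM in DLD1 and 0.0888 ± 0.0234 TPM in HUH7. PEMT, which methylates phosphatidylethanolamine in liver, did not pass the test, at 41.6 ± 5.01 TPM in DLD1 and 39.4 ± 2.28 TPM in HUH7.

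**Figure D5:**
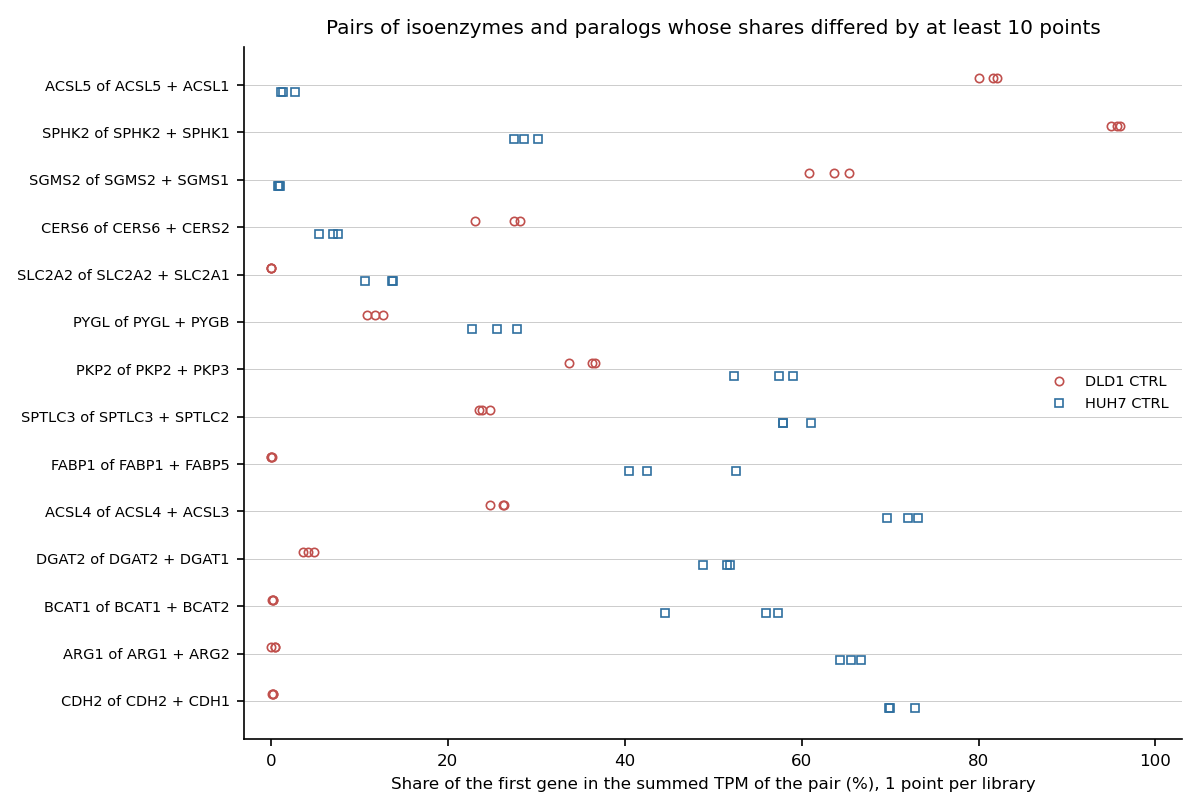
Share of the first gene in the summed TPM of a pair of isoenzymes or paralogs, in percent, 1 point per control library (circles DLD1 CTRL, squares HUH7 CTRL), for the pairs whose mean shares differed by at least 10 percentage points. No library of a line lies within the range of the other line for any pair shown, from ACSL5 and SPHK2 at the top to ARG1 and CDH2 at the bottom.

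Sphingolipid genes differed at single steps. Of 16 tested genes of de novo synthesis, 4 were more than 2-fold higher and 2 more than 2-fold lower in DLD1, 37.5% in all, and of 39 tested genes of use, breakdown and signalling, 7 were more than 2-fold higher and 6 more than 2-fold lower in DLD1, 33.3% in all. At the first step, SPTLC2 and SPTLC3 are alternative subunits of serine palmitoyltransferase, and SPTLC3 made up 24.1% ± 0.661 in DLD1 and 59.0% ± 1.84 in HUH7 of their sum. Both were higher in DLD1, SPTLC2 at 56.6 ± 1.17 TPM in DLD1 and 6.03 ± 0.817 TPM in HUH7 (log2 difference 3.04, adjusted p = 6.48e-13) and SPTLC3 at 17.9 ± 0.902 TPM in DLD1 and 8.70 ± 1.49 TPM in HUH7 (log2 difference 0.98; adjusted p = 1.25e-06 without a fold threshold). SPTLC1, their common partner, averaged 87.7 ± 5.99 TPM in DLD1 and 40.7 ± 3.20 TPM in HUH7 (log2 difference 1.09; adjusted p = 1.21e-09 without a fold threshold). KDSR, the next enzyme, lies on chromosome 18 from 63327726 to 63367510 (hg38) and differed by a log2 value of 2.18 (95% interval 1.98 to 2.38, adjusted p = 9.76e-09). The regulators ORMDL1 and ORMDL3 and the small subunits SPTSSA and SPTSSB had log2 differences between -0.25 and 0.29, with SPTSSA at 82.1 ± 12.4 TPM in DLD1 and 82.5 ± 16.1 TPM in HUH7.

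Ceramide synthases differ in the chain length they add. CERS4 had 0.0479, 0.0483 and 0 TPM in DLD1, against 35.6, 38.3 and 35.8 TPM in HUH7 (log2 difference -5.19, adjusted p = 5.08e-16), so it was close to silent in DLD1. CERS2, which uses very long chains, was more than 2-fold lower in DLD1 (log2 difference -1.83, adjusted p = 5.95e-08), and CERS6, which uses C16 chains, made up 26.3% ± 2.81 in DLD1 and 6.69% ± 1.12 in HUH7 of the sum of CERS6 and CERS2. CERS5 did not pass the test (13.4 ± 1.32 TPM in DLD1 and 15.2 ± 0.533 TPM in HUH7). FA2H, which hydroxylates the fatty acid of ceramide, had 15.6, 16.0 and 17.8 TPM in DLD1, against 0, 0.182 and 0 TPM in HUH7, with no overlap (log2 difference 4.04, adjusted p = 9.08e-12). DEGS2, which makes the phytoceramide common in gut, averaged 2.73 ± 0.420 TPM in DLD1 and 0.0887 ± 0.0452 TPM in HUH7.

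Beyond ceramide, the sphingomyelin synthase SGMS2 made up 63.3% ± 2.27 in DLD1 and 0.893% ± 0.0870 in HUH7 of its sum with SGMS1. UGT8, which makes galactosylceramide, had 30.7, 31.5 and 27.1 TPM in DLD1, against 0.575, 0.678 and 0.684 TPM in HUH7 (log2 difference 4.22, adjusted p = 9.26e-16). UGCG, which makes glucosylceramide, averaged 24.0 ± 1.28 TPM in DLD1 and 46.2 ± 8.58 TPM in HUH7 (log2 difference -0.90; adjusted p = 5.44e-07 without a fold threshold). B4GALNT1, of complex ganglioside synthesis, averaged 0.0325 ± 0.0371 TPM in DLD1 and 17.8 ± 2.15 TPM in HUH7, and A4GALT, which makes the globoside Gb3, averaged 0 TPM in DLD1 and 5.13 ± 0.737 TPM in HUH7. UGT8 was thus higher, and B4GALNT1 and A4GALT lower, in DLD1. For sphingosine 1-phosphate, SPHK2 made up 95.6% ± 0.486 in DLD1 and 28.8% ± 1.39 in HUH7 of the sum of the kinases SPHK2 and SPHK1. SPHK1 was lower at 0.711 ± 0.160 TPM in DLD1 and 28.6 ± 3.01 TPM in HUH7 (log2 difference -4.11, adjusted p = 2.28e-14), while SPHK2 averaged 15.2 ± 1.73 TPM in DLD1 and 11.52 ± 0.543 TPM in HUH7 (log2 difference 0.37; adjusted p = 0.00262 without a fold threshold, and 0.0705 after median ratio scaling). SPNS2, its exporter, averaged 18.3 ± 1.86 TPM in DLD1 and 0.240 ± 0.00495 TPM in HUH7. SGPP2, a phosphatase, averaged 6.29 ± 0.559 TPM in DLD1 and 0.651 ± 0.315 TPM in HUH7, and SGPL1, the lyase that ends the pathway, averaged 66.6 ± 1.48 TPM in DLD1 and 23.4 ± 1.79 TPM in HUH7. All 3 were more than 2-fold higher in DLD1. S1PR3, a receptor, had 0, 0.0144 and 0 TPM in DLD1, against 17.0, 18.3 and 19.2 TPM in HUH7 (log2 difference -4.25, adjusted p = 1.00e-15). In the lysosome, NEU1, a sialidase, averaged 27.7 ± 1.72 TPM in DLD1 and 183 ± 4.24 TPM in HUH7 and was more than 2-fold lower in DLD1.

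Heat shock genes held a few large differences. Of 25 tested, 1 was more than 2-fold higher and 3 more than 2-fold lower in DLD1, 16.0% in all. The median was 0.29. Without a fold threshold, 13 were higher and 5 lower in DLD1 (13 and 7 after median ratio scaling). Over all tested genes, 42.7% were higher and 33.1% lower without that threshold. HSPB8, a small heat shock protein, had 0, 0.0685 and 0 TPM in DLD1, against 88.9, 91.2 and 98.7 TPM in HUH7 (log2 difference -6.52, adjusted p = 5.53e-19). HSPA1A had 2.11, 1.81 and 2.72 TPM in DLD1, against 170.5, 148 and 154 TPM in HUH7. HSPA1B had 133, 131 and 150.3 TPM in DLD1, against 63.5, 63.5 and 58.8 TPM in HUH7. These HSP70 genes are near-identical copies, so the split of reads between them is uncertain, and their differences have opposite signs (-5.63 and 1.14). HSPB1, an abundant small heat shock protein, averaged 2529.6 ± 214 TPM in DLD1 and 1018 ± 201 TPM in HUH7 (log2 difference 1.33; adjusted p = 6.18e-07 without a fold threshold), and it passed the 2-fold test without HUH7 CTRL replicate 1. HSF1, the master regulator, did not pass the test (76.9 ± 7.49 TPM in DLD1 and 80.0 ± 7.49 TPM in HUH7).

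Of 33 tested genes of protein folding in the endoplasmic reticulum, 1 was more than 2-fold higher and 4 more than 2-fold lower in DLD1, 15.2% in all, and without a fold threshold 7 were higher and 20 lower in DLD1 (5 and 22 after median ratio scaling; median -0.29). XBP1, a driver of secretory capacity, had 204, 212 and 204 TPM in DLD1, against 670.4, 719 and 659.6 TPM in HUH7 (log2 difference -1.72, adjusted p = 3.34e-10). DNAJB9, a co-chaperone, averaged 17.6 ± 1.73 TPM in DLD1 and 51.4 ± 8.72 TPM in HUH7, and SEL1L, of the degradation complex, averaged 28.8 ± 0.841 TPM in DLD1 and 75.1 ± 10.4 TPM in HUH7. ERN2, the form of the sensor IRE1 found in mucosal epithelium, was higher with 46.7, 43.1 and 49.3 TPM in DLD1, against 0, 0 and 0.0402 TPM in HUH7 (log2 difference 5.54, adjusted p = 7.18e-18). CANX, calnexin, did not pass the test (771 ± 30.6 TPM in DLD1 and 709 ± 88.5 TPM in HUH7).

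Among 30 tested ATF4 and CHOP targets, genes of the amino acid and stress response, 3 were more than 2-fold higher and 8 more than 2-fold lower in DLD1, 36.7% in all. STC2, a secreted glycoprotein, averaged 0 TPM in DLD1 and 32.6 ± 1.76 TPM in HUH7. NUPR1, a stress-induced chromatin protein, averaged 1.59 ± 0.234 TPM in DLD1 and 59.9 ± 7.53 TPM in HUH7, and CBS, of cysteine synthesis, averaged 0 TPM in DLD1 and 8.87 ± 0.658 TPM in HUH7. GDF15, a stress hormone that is also a p53 target, was higher at 629 ± 64.0 TPM in DLD1 and 188 ± 13.8 TPM in HUH7 (log2 difference 1.74, adjusted p = 0.00144). TRIB3, a pseudokinase commonly used as a readout of the response, did not pass the test (246 ± 19.4 TPM in DLD1 and 257 ± 5.03 TPM in HUH7).

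Detoxifying enzymes differed by isoenzyme. Of 41 tested NRF2 targets and glutathione genes, 5 were more than 2-fold higher and 12 more than 2-fold lower in DLD1, 41.5% in all, with 18 higher and 17 lower without a fold threshold (15 and 20 after median ratio scaling). AKR1C1, an aldo-keto reductase, had 0.111, 0.179 and 0.0797 TPM in DLD1, against 89.8, 90.2 and 90.5 TPM in HUH7 (log2 difference -6.34, adjusted p = 1.15e-17), though close copies of the family could share reads. GSTM1, a glutathione transferase whose gene is deleted in many people, had 0 TPM in DLD1 and 52.4 ± 2.74 TPM in HUH7. GPX3, a secreted glutathione peroxidase, averaged 26.7 ± 2.92 TPM in DLD1 and 167 ± 5.47 TPM in HUH7. PRDX1 and TXNRD1, abundant antioxidant enzymes, did not pass the test (TXNRD1 267 ± 12.7 TPM in DLD1 and 252 ± 31.1 TPM in HUH7).

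Metal handling genes included 27 tested genes, of which 2 were more than 2-fold higher and 10 more than 2-fold lower in DLD1, 44.4% in all (median -0.88). TF, transferrin, had 0, 0.00748 and 0 TPM in DLD1, against 389, 417 and 422 TPM in HUH7 (log2 difference -8.68, adjusted p = 7.64e-21). CP, ceruloplasmin, the copper oxidase of plasma, had 0.0267, 0.0269 and 0.0319 TPM in DLD1, against 136, 164 and 161 TPM in HUH7 (log2 difference -7.23, adjusted p = 1.14e-18). SLC40A1, the iron exporter ferroportin, had 1.03, 1.49 and 1.24 TPM in DLD1, against 122, 168 and 169 TPM in HUH7 (log2 difference -6.08, adjusted p = 6.22e-15). HJV, a co-receptor of hepcidin control, averaged 0 TPM in DLD1 and 93.0 ± 4.51 TPM in HUH7. MT1G, a metallothionein, averaged 0.174 ± 0.302 TPM in DLD1 and 161 ± 3.37 TPM in HUH7. MT1E, a close copy of it, did not pass the test (269 ± 19.1 TPM in DLD1 and 271 ± 32.2 TPM in HUH7), and reads could be split between such copies. SLC39A4, a zinc importer of intestine, was higher at 18.2 ± 1.92 TPM in DLD1 and 0.0133 ± 0.0230 TPM in HUH7, and LCN2, which binds bacterial iron carriers, at 11.1 ± 1.12 TPM in DLD1 and 0 TPM in HUH7.

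Of 22 tested p53 targets, 5 were more than 2-fold higher and 2 more than 2-fold lower in DLD1, 31.8% in all. FAS, a death receptor, had 11.2, 10.5 and 9.69 TPM in DLD1, against 0.0454, 0 and 0 TPM in HUH7 (log2 difference 3.49, adjusted p = 1.34e-11). PMAIP1, which encodes the death protein NOXA, averaged 46.9 ± 4.76 TPM in DLD1 and 5.14 ± 0.724 TPM in HUH7, and TP53INP1, an autophagy protein, averaged 1.53 ± 0.334 TPM in DLD1 and 42 ± 5.32 TPM in HUH7. MDM2, the ligase that limits p53, did not pass the test (14.4 ± 0.741 TPM in DLD1 and 15.9 ± 2.54 TPM in HUH7).

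Antigen presentation and interferon genes were higher in DLD1 in 18 of 35 tested genes and lower in 3 by more than 2-fold, 60% in all (median 1.41). IRF7, an interferon regulatory factor, had 47.1, 48.7 and 52.8 TPM in DLD1, against 0, 0.151 and 0.0765 TPM in HUH7 (log2 difference 5.55, adjusted p = 6.03e-17). OAS1, a sensor of double-stranded RNA, averaged 31.7 ± 1.93 TPM in DLD1 and 1.58 ± 0.430 TPM in HUH7, and IFITM2, a membrane protein against viruses, averaged 885 ± 40.6 TPM in DLD1 and 28.5 ± 2.88 TPM in HUH7. B2M, the light chain of MHC class I molecules, went the other way with 49.4, 47.4 and 42.8 TPM in DLD1, against 319.6, 379.9 and 343 TPM in HUH7 (log2 difference -2.87, adjusted p = 7.52e-13). GBP1 and GBP2, guanylate-binding proteins induced by interferon gamma, were also lower in DLD1 (GBP2 0.0311 ± 0.0312 TPM in DLD1 and 21.4 ± 1.20 TPM in HUH7). IRF1 and MX1, other interferon readouts, did not pass the test (IRF1 5.86 ± 0.541 TPM in DLD1 and 5.79 ± 0.342 TPM in HUH7).

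Inflammatory genes of the NF-kB response were more than 2-fold lower in DLD1 for 8 of 21 tested genes and higher for 3, 52.4% in all. CCL20, a chemokine of mucosal immunity, had 0.610, 1.11 and 0.877 TPM in DLD1, against 480.0, 719.7 and 699 TPM in HUH7 (log2 difference -8.39, adjusted p = 4.23e-16). CXCL1, a neutrophil chemokine, averaged 4.99 ± 0.137 TPM in DLD1 and 351 ± 24.8 TPM in HUH7, and CXCL8, interleukin 8, averaged 4.93 ± 1.45 TPM in DLD1 and 178 ± 37.2 TPM in HUH7. CXCL5, another of these chemokines, was higher at 1418 ± 112 TPM in DLD1 and 546 ± 100.2 TPM in HUH7 (log2 difference 1.39, adjusted p = 0.00496, and 0.136 with a pseudocount of 0.1, where 1 gene of the list passed as higher), as was CCL26, an eosinophil chemokine, at 29.7 ± 6.43 TPM in DLD1 and 0.462 ± 0.310 TPM in HUH7.

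Of 30 tested genes of glycolysis and lactate, 6 were more than 2-fold higher and 6 more than 2-fold lower in DLD1, 40% in all (median -0.01). PFKP, the platelet form of phosphofructokinase, had 134, 148 and 156 TPM in DLD1, against 1.24, 1.03 and 1.45 TPM in HUH7 (log2 difference 6.04, adjusted p = 1.29e-17). SLC2A1, the widespread glucose transporter GLUT1, averaged 306 ± 18.9 TPM in DLD1 and 72.0 ± 2.51 TPM in HUH7, and SLC2A2, the transporter of liver and beta cells, averaged 0 TPM in DLD1 and 10.6 ± 2.01 TPM in HUH7. LDHB, the lactate dehydrogenase subunit of heart, had 13.2, 12.1 and 10.9 TPM in DLD1, against 0.0647, 0 and 0.0674 TPM in HUH7 (log2 difference 3.64, adjusted p = 7.00e-14). It made up 1.59% ± 0.0743 in DLD1 and 0.00405% ± 0.00354 in HUH7 of its sum with LDHA, the muscle subunit. BNIP3, a mitophagy receptor induced by low oxygen, had 1.21, 1.10 and 1.14 TPM in DLD1, against 134, 165 and 153 TPM in HUH7. CA9, a carbonic anhydrase with the same inducer, averaged 0.0853 ± 0.0748 TPM in DLD1 and 19.3 ± 2.002 TPM in HUH7, and ALDOC, the brain aldolase, averaged 2.07 ± 0.315 TPM in DLD1 and 70.2 ± 4.34 TPM in HUH7. All 3 were more than 2-fold lower in DLD1. ENO1, TPI1 and PGK1, enzymes of the main chain, did not pass the test (TPI1 1485 ± 51.3 TPM in DLD1 and 1492 ± 50.8 TPM in HUH7). ENO1 and TPI1 passed it as lower in DLD1 after median ratio scaling and after quantile normalization. PGK1 passed it as higher in DLD1 after quantile normalization and without HUH7 CTRL replicate 2.

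Of 27 tested genes of glucose production and glycogen, 3 were more than 2-fold higher and 4 more than 2-fold lower in DLD1, 25.9% in all. PC, pyruvate carboxylase, had 18.9, 18.9 and 20.4 TPM in DLD1, against 202, 179.8 and 190.0 TPM in HUH7 (log2 difference -3.23, adjusted p = 7.79e-15). GYG2, the glycogenin of liver, averaged 0.519 ± 0.161 TPM in DLD1 and 118 ± 5.09 TPM in HUH7, and PYGL, liver glycogen phosphorylase, made up 11.8% ± 0.959 in DLD1 and 25.4% ± 2.52 in HUH7 of its sum with PYGB. FBP1, a bisphosphatase that hepatocytes use for glucose synthesis, was higher at 34.8 ± 3.43 TPM in DLD1 and 6.96 ± 0.640 TPM in HUH7 (log2 difference 2.17, adjusted p = 2.60e-07). PCK1, the cytosolic carboxykinase of the fasting liver, was at under 0.1 TPM in both lines (0.0114 ± 0.0197 TPM in DLD1 and 0.00944 ± 0.0164 TPM in HUH7), and PCK2, its mitochondrial form, was at 70.2 ± 4.01 TPM in DLD1 and 51.6 ± 3.44 TPM in HUH7.

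Enzymes of amino acid breakdown were more than 2-fold lower in DLD1 for 12 of 35 tested genes and higher for 4, 45.7% in all. ARG1, the arginase of the urea cycle, made up 0.330% ± 0.286 in DLD1 and 65.5% ± 1.21 in HUH7 of its sum with ARG2, the mitochondrial arginase. GLDC, of glycine cleavage, had 0.0870, 0.0219 and 0.0261 TPM in DLD1, against 92.3, 99.6 and 95.9 TPM in HUH7 (log2 difference -6.54, adjusted p = 4.54e-19). HGD, of tyrosine breakdown, averaged 1.24 ± 0.453 TPM in DLD1 and 185 ± 7.66 TPM in HUH7. BCAT1, the cytosolic branched-chain aminotransferase, was 0.221% ± 0.0693 in DLD1 and 52.6% ± 7.01 in HUH7 of its sum with BCAT2. ASS1, which makes argininosuccinate, had 312, 321 and 352 TPM in DLD1, against 15.5, 14.3 and 12.3 TPM in HUH7 (log2 difference 4.45, adjusted p = 9.95e-15) and was the member furthest in the other direction. CPS1 and OTC, the mitochondrial start of the urea cycle, were below the filter.

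Of 27 genes for serine, one-carbon and nucleotide synthesis, 6 differed by more than 2-fold, all higher in DLD1 (3 after median ratio scaling). Of the list 22.2% passed, against 26.5% of all tested genes (12.4% higher and 14.1% lower). Without a fold threshold, 17 were higher and 4 lower in DLD1 (16 and 7 after median ratio scaling). FOLR1, a folate receptor, averaged 11.3 ± 1.42 TPM in DLD1 and 0.120 ± 0.121 TPM in HUH7, and GART, of purine synthesis, averaged 166 ± 4.54 TPM in DLD1 and 56.5 ± 4.81 TPM in HUH7. MTHFD2, of mitochondrial folate, averaged 131 ± 8.17 TPM in DLD1 and 51.7 ± 10.3 TPM in HUH7, and it did not pass the 2-fold test after median ratio scaling or without any 1 of HUH7 CTRL replicate 1, DLD1 CTRL replicate 1 and DLD1 CTRL replicate 2, or in the fit of the 6 control libraries alone. PSAT1, SHMT2 and IMPDH1, of serine, glycine and purine synthesis, did not pass the test without a fold threshold (SHMT2 235 ± 10.4 TPM in DLD1 and 227 ± 7.63 TPM in HUH7).

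Of drug metabolism enzymes, 9 of 32 tested genes were more than 2-fold higher and 9 more than 2-fold lower in DLD1, 56.25% in all. CYP1A1, a target of the aryl hydrocarbon receptor, averaged 1.04 ± 0.310 TPM in DLD1 and 77.7 ± 6.83 TPM in HUH7, and UGT2B4, a glucuronosyltransferase of liver, averaged 0.374 ± 0.286 TPM in DLD1 and 45.2 ± 4.89 TPM in HUH7. ALDH3A1, an aldehyde dehydrogenase of surface epithelia, averaged 55.4 ± 2.64 TPM in DLD1 and 0.924 ± 0.481 TPM in HUH7, and SULT2B1, a sulfotransferase of cholesterol, averaged 60.2 ± 7.59 TPM in DLD1 and 0.116 ± 0.107 TPM in HUH7. CYP3A4 and CYP2E1, prominent cytochromes of adult liver, were below the filter in these libraries.

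Of 76 tested genes of the respiratory chain encoded in the nucleus, 4 were more than 2-fold higher and 2 more than 2-fold lower in DLD1, 7.89% in all, against 26.5% of all genes. The counts were 1 and 3 after median ratio scaling, and 2 and 2 without HUH7 CTRL replicate 1. NDUFC2, a subunit of complex I, was the furthest apart at 12.4 ± 2.70 TPM in DLD1 and 41.6 ± 6.45 TPM in HUH7 (log2 difference -1.68, adjusted p = 0.00277). Of 13 genes on mitochondrial DNA, 2 were called without a fold threshold, both lower in DLD1, and the median of -0.19 turned to 0.03 without HUH7 CTRL replicate 1 and to 0.14 after quantile normalization. MT-CO2, of complex IV, had 12543, 8693 and 9041 TPM in DLD1, against 32131, 15057 and 18633 TPM in HUH7 (log2 difference -1.06; adjusted p = 2.92e-04 without a fold threshold), with a log2 difference of 0.14 after quantile normalization. MT-CO3, of the same complex, was at 7496 ± 1418 TPM in DLD1 and 10688 ± 3647 TPM in HUH7 (adjusted p = 0.0435 without a fold threshold). It did not pass without HUH7 CTRL replicate 1, DLD1 CTRL replicate 2 or DLD1 CTRL replicate 3, in the fit of the 6 control libraries alone, with voom, after quantile normalization, without a filter or with a filter at 5 TPM. Ribosomal protein genes held 8.04% ± 0.123 of the summed TPM in DLD1 and 5.92% ± 0.160 in HUH7, and 62 of 76 were higher and 4 lower in DLD1 without a fold threshold (47 and 7 after median ratio scaling). Of these, 4 passed the 2-fold test, or 5.26%, all higher in DLD1 (2 after median ratio scaling).

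Of 28 tested genes of growth factor signalling through the EGF receptor family, 6 were more than 2-fold higher and 9 more than 2-fold lower in DLD1, 53.6% in all. TGFA, a ligand of the EGF receptor, had 103.4, 105.5 and 102.7 TPM in DLD1, against 0, 0 and 0.0405 TPM in HUH7 (log2 difference 6.69, adjusted p = 1.59e-19). AREG, amphiregulin, had 598, 619 and 556 TPM in DLD1, against 23.2, 22.5 and 28.04 TPM in HUH7 (log2 difference 4.54, adjusted p = 8.84e-13). EREG, epiregulin, had 561, 574 and 421 TPM in DLD1, against 21.3, 33 and 37.2 TPM in HUH7 (log2 difference 4.07, adjusted p = 1.54e-11). The ligands were each higher in every DLD1 library. EGFR, the receptor they share, was lower at 34.9 ± 1.38 TPM in DLD1 and 149 ± 15.8 TPM in HUH7 (log2 difference -2.06, adjusted p = 9.18e-10) and was chosen once its values were seen, as was ERBB2, a co-receptor, at 77.7 ± 8.40 TPM in DLD1 and 18.5 ± 1.23 TPM in HUH7. ERBB3, another co-receptor, did not pass the test (66.1 ± 1.70 TPM in DLD1 and 63.8 ± 1.77 TPM in HUH7). INSR, the insulin receptor, averaged 4.75 ± 0.436 TPM in DLD1 and 23.5 ± 3.003 TPM in HUH7.

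YAP and TEAD targets were more than 2-fold lower in DLD1 for 6 of 14 tested genes and higher for 3, 64.3% in all. In the fit of the 6 control libraries alone, 5 were lower and 1 higher. ANKRD1, a common readout, had 8.55, 7.03 and 7.18 TPM in DLD1, against 511, 613 and 640.3 TPM in HUH7 (log2 difference -6.10, adjusted p = 2.49e-15). CTGF, a matrix-associated protein now called CCN2, averaged 14.1 ± 0.819 TPM in DLD1 and 479 ± 28.4 TPM in HUH7. YAP1 itself was higher at 130.1 ± 6.67 TPM in DLD1 and 53.04 ± 6.74 TPM in HUH7 (log2 difference 1.29, adjusted p = 0.00362; it did not pass the 2-fold test in the fit of the 6 control libraries alone), while WWTR1, its paralog, was lower at 2.504 ± 0.0906 TPM in DLD1 and 22.6 ± 3.34 TPM in HUH7. F3, tissue factor, was the target furthest in the other direction at 82.8 ± 3.40 TPM in DLD1 and 7.88 ± 1.53 TPM in HUH7.

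Of 34 tested DNA replication genes, 3 were more than 2-fold higher and 1 more than 2-fold lower in DLD1, 11.8% in all (5 higher with voom), and of 30 mitotic genes, 1 was more than 2-fold higher and 1 more than 2-fold lower in DLD1, 6.67% in all. CDC45, a component of the active replicative helicase, averaged 72.2 ± 2.05 TPM in DLD1 and 246 ± 11.4 TPM in HUH7. MCM5, part of that helicase, averaged 132 ± 10.9 TPM in DLD1 and 48.1 ± 3.94 TPM in HUH7. CENPE, a kinetochore motor, averaged 20.3 ± 2.64 TPM in DLD1 and 73.4 ± 11.4 TPM in HUH7. CCNB2, cyclin B2, averaged 198 ± 2.37 TPM in DLD1 and 85.2 ± 8.11 TPM in HUH7, and it did not pass the 2-fold test after median ratio scaling or quantile normalization, without a filter, in the fit of the 6 control libraries alone, or without any 1 of HUH7 CTRL replicate 1 and DLD1 CTRL replicates 1, 2 and 3. MKI67, the proliferation marker Ki-67, did not pass the test (206 ± 15.8 TPM in DLD1 and 226 ± 25.2 TPM in HUH7). In G1 control, CDKN2A, which encodes the inhibitor p16, had 0 TPM in all 3 libraries of DLD1, against 65.8, 56.6 and 51.9 TPM in HUH7 (log2 difference -5.88, adjusted p = 1.29e-17). CDKN2B, its neighbour, had 1.49, 0.966 and 0.976 TPM in DLD1, against 25.8, 26.1 and 28.02 TPM in HUH7 (log2 difference -3.70, adjusted p = 2.85e-12). MYC, a driver of growth, averaged 348 ± 35.1 TPM in DLD1 and 97.0 ± 5.15 TPM in HUH7 (log2 difference 1.83, adjusted p = 4.50e-09). MYCN, its paralog, averaged 2.82 ± 1.03 TPM in DLD1 and 94.2 ± 7.31 TPM in HUH7 (log2 difference -4.68, adjusted p = 9.62e-12). MYC was thus higher and MYCN lower in DLD1.

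Of 8 mismatch repair genes, 2 were more than 2-fold higher and 1 more than 2-fold lower in DLD1, 37.5% in all. MSH6, which recognises base mismatches, had 7.34, 7.95 and 7.27 TPM in DLD1, against 33.4, 43.5 and 42.5 TPM in HUH7 (log2 difference -2.25, adjusted p = 2.53e-09). DLD1 is known as a line that lacks MSH6 function, and the link of this to its RNA level was not tested. MSH3, which recognises insertion and deletion loops, averaged 38.5 ± 3.45 TPM in DLD1 and 12.2 ± 2.21 TPM in HUH7 (log2 difference 1.59, adjusted p = 2.54e-04).

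At the other end, 5 genes of high level differed least. MGAT4B, a glycosyltransferase, averaged 178 ± 13.7 TPM in DLD1 and 177 ± 10.1 TPM in HUH7, and DHX15, a splicing helicase, averaged 165 ± 7.52 TPM in DLD1 and 165 ± 16.3 TPM in HUH7. MELK, a kinase of dividing cells, averaged 180.1 ± 15.4 TPM in DLD1 and 182 ± 33.9 TPM in HUH7. MRPL51, of the mitochondrial ribosome, averaged 278 ± 8.79 TPM in DLD1 and 278 ± 6.22 TPM in HUH7, and TADA3, of histone acetylation complexes, averaged 110.1 ± 6.63 TPM in DLD1 and 109.9 ± 1.15 TPM in HUH7. After median ratio scaling, DHX15, MRPL51 and TADA3 passed the test without a fold threshold as lower in DLD1. Each then had a log2 difference of -0.15. Along the genome, the median log2 difference of a chromosome's tested genes was highest on chromosomes 18 (0.51, 247 genes) and 21 (0.44, 185 genes) and lowest on chromosomes 22 (-0.31, 427 genes) and 20 (-0.10, 432 genes), as a description without a test. On chromosome 18, where KDSR lies, 55 genes (22.3%) were more than 2-fold higher and 41 (16.6%) lower in DLD1. Over all tested genes the shares were 12.4% and 14.1%.

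The difference between the lines was seen again in the 6 libraries of the same lines with the KDSR guide. These are separate libraries, but they come from the same lines and share the fit's estimate of spread. They are thus not an independent replicate. KDSR, the gene that guide targets, averaged 19.2 ± 0.413 TPM in KDSR KO DLD1 and 29.7 ± 2.503 TPM in control DLD1, and 3.63 ± 0.401 TPM in KDSR KO HUH7 and 5.79 ± 0.730 TPM in control HUH7. Of the 4439 genes that differed by more than 2-fold between the controls, 4438 had the same direction there and 3976 passed the 2-fold test again, where 25.5% of all tested genes passed it. The exception in direction was OSGIN1, an inhibitor of growth that oxidative stress induces, which in the controls had 9.78, 10.1 and 11.4 TPM in DLD1, against 44.1, 36.7 and 41.6 TPM in HUH7 (log2 difference -1.87), with a log2 difference of 0.53 in the KDSR KO libraries; it was chosen once its values were seen. The difference between the lines itself differed between the guides, at an adjusted p under 0.05, for 344 genes (2.05%).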

How the data were processed

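Total RNA was sequenced from 18 libraries in 6 groups of 3, of which the 6 control libraries of DLD1 and HUH7 are compared here. The authors deposited TPM values and gene lengths in 1 table; per the submitters' processing notes, reads were counted with featureCounts 2.0.0 on hg38, while the aligner and the handling of strand and of reads that match several genes are not given in the sources used here. Gene coordinates are those of GENCODE 29, in which all 27166 identifiers of the table were found. TPM is a share of each library's total, so an abundant gene lowers the share of the others. TPM times gene length came out as whole reads for 100% of values (within 0.01 reads), which gave 17039634 to 20339678 reads per control library; 1 read of a gene of 2000 bases equals 0.0966 to 0.116 TPM there. These depths cover counting error only.

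Differences (DLD1 minus HUH7) were fitted with limma 3.58.1 in R 4.3.3 on log2(TPM + 1), with 1 mean per group over all 18 libraries, 12 residual degrees of freedom and trended robust moderation, for genes that averaged 1 TPM or more in the 6 control libraries. P-values were Benjamini-Hochberg adjusted over all 16763 genes at a threshold of 0.05, and the stricter test was limma's test against a log2 difference of 1. The exact permutation test of 3 libraries against 3 can go no lower than 0.1 (two-sided) and was not used. The steps were tested on simulated data. The sources call the replicates biological triplicates without naming separate cultures, so p-values measure the spread between these libraries.

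The genes, lists, pairs and markers were chosen with earlier results of these data known, and lists are described by counts and medians without a test. The genes named were the 12 with the largest differences in each direction (mean of at least 5 TPM, no overlap of ranges), of each list up to 6 called members, 3 against the rest and 3 uncalled members of the highest mean, any member of the transcription factor, sphingolipid and marker lists and of the isoenzyme pairs, KDSR, and the 5 genes of at least 100 TPM that differed least; others are said to be named after their values were seen. Alternatives were another pseudocount, other filters and scalings, the control libraries alone, the replicate number as a block, plain moderation, each library left out, and limma's voom on the recovered reads. A fold against a line without reads used a floor of 3 reads over its 3 libraries. Some members of the lists are not reported here by name, though they are in the counts.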

Additional observations from a re-analysis of the deposited data

Results flagged for a closer look

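Of 283 named genes tested, 26 had a different line difference in the KDSR KO and control libraries (limma interaction, adjusted p under 0.05). Over all tested genes, 2.05% passed. The genes were named with earlier results known, and some once their values were seen, so the 2 shares are not alike. Values are log2 differences between the lines with the KDSR guide minus the same with the control guide, and the causes were not tested. A value of either sign can widen or narrow the line difference, depending on its direction in the controls. The value was positive for 15 genes. Heat shock genes had the largest, with 3.40 for HSPA1B (log2 difference 4.54 with the KDSR guide and 1.14 with the control guide) and 2.74 for HSPA1A (-2.89 and -5.63), whose reads could be split between near-identical copies. OSGIN1 had 2.40 (0.53 and -1.87), the only change of sign among genes past the 2-fold test in the controls. The YAP and TEAD targets ANKRD1 and CTGF had 1.82 and 0.516, and the inflammatory gene CXCL8 had 1.30. LCN2, which binds bacterial iron carriers, had 1.47, CDKN2B 1.15 and GPX3 1.01. Smaller positive values were 0.849 for SPHK1, 0.806 for DNAJB9, 0.620 for TXNRD1, 0.583 for LAMB3, 0.559 for NUPR1 and 0.450 for SLC2A1.

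The value was negative for 11 genes. Among genes of gut epithelium it was -0.551 for CDX2, -0.562 for ASCL2 and -0.448 for VIL1, and for MUC5AC, the gastric mucin, it was -0.658. The line difference narrowed for CDX2, ASCL2 and MUC5AC and widened for VIL1 (-2.71 with the control guide and -3.16 with the KDSR guide). Among lipid genes the value was -0.625 for ACSL5, -0.401 for CPT1A, -0.392 for SCD and -0.346 for FDFT1. Here the line difference narrowed for ACSL5 and FDFT1. With the control and the KDSR guide, it widened for CPT1A (-0.0501 and -0.451) and SCD (-1.27 and -1.67). The value was -0.495 for TNNC1, -0.390 for KLK6 and -0.290 for ID1. For CDX2, ASCL2 and TNNC1 the line difference with the KDSR guide was still 5.29, 8.23 and 8.78 on the log2 scale.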

How the results depend on the processing

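Of 4515 combinations of a named gene and an alternative setting, 4455 kept their direction and their side of the threshold, 14 lost the call at an adjusted p under 0.05, 44 gained it and 2 changed sign. The gains fell on 20 named genes, so their lack of a call depended on the setting. Among them were CERS5, CPT1A, ENO1, MDM2, PSAT1, SAR1B and TPI1. Among 216 named genes more than 2-fold apart, 8 lost that call in at least 1 setting. The changes of sign were MT-CO2, at 0.14 after quantile normalization, and TADA3, at -0.15 after median ratio scaling; the cause was not tested. With a filter at 5 TPM, which tests fewer genes, the count of genes more than 2-fold lower in DLD1 fell to 1466, and to 1511 in the KDSR KO libraries. All other counts of calls over all genes stayed within 1.5 times of those reported. Within lists, 22 of 1472 counts past the 2-fold test moved by more, in 12 lists, among them 11 bile acid genes lower in DLD1, which became 7 with the filter at 5 TPM. Median ratio scaling gave 6263 genes higher and 6423 lower in DLD1, and 1832 and 2536 past the 2-fold test; limma's voom on recovered reads gave 2350 and 2565 past it. Leaving out each control library in turn gave 6872 to 7146 genes higher and 5276 to 5685 lower in DLD1, and 1997 to 2050 higher and 2303 to 2368 lower by more than 2-fold; in the KDSR KO libraries the same fits gave 1864 to 1913 higher and 2387 to 2423 lower by more than 2-fold.

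With the replicate number as a replicate block, 7101 genes were higher and 5492 lower in DLD1, and 2067 and 2346 by more than 2-fold (1852 and 2370 in the KDSR KO libraries). The libraries share only a number: deviations from the group means correlated at -0.07, 0.11 and -0.10 between same-numbered libraries, and not every library correlated best with its own number. At the depth of these libraries, 1 read of a gene of 2000 bases is worth about 0.1 TPM, so levels below that rest on single reads. Folds taken directly from such TPM levels were given only as bounds or not at all. The log2 differences printed for such genes are not bounded in this way. They include the added 1, which sets much of their size, so that size is not exact. Each line is 1 line, so line, tissue and tumour cannot be told apart. Close copies (HSPA1A and HSPA1B, metallothioneins, AKR1C1 and GSTM1 with their relatives) could share reads.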

Other observations

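A set of genes was on in 1 line and near 0 in the other. In the control libraries, 172 genes averaged at least 10 TPM in DLD1 and under 0.1 TPM in HUH7, 356 genes averaged under 0.1 TPM in DLD1 and at least 10 TPM in HUH7, and 7903 genes averaged at least 10 TPM in both. Some isoenzyme pairs had shares within 5 percentage points of each other in the lines, a difference that was not tested. For a gene that is a small part of its pair, a small gap in points can still be a large fold. HK1 made up 43.5% ± 0.445 in DLD1 and 43.7% ± 1.94 in HUH7 of the summed TPM of the hexokinases HK1 and HK2. HNF4G made up 7.67% ± 0.821 in DLD1 and 9.87% ± 1.78 in HUH7 of its sum with HNF4A. TFR2, the transferrin receptor of liver, made up 3.12% ± 0.341 in DLD1 and 4.86% ± 1.56 in HUH7 of its sum with TFRC, the widespread receptor. SOAT2, a cholesterol esterification enzyme of liver and intestine, made up 0.414% ± 0.391 in DLD1 and 4.78% ± 2.98 in HUH7 of its sum with SOAT1, without overlap between the lines. SOAT2 itself averaged 0.101 TPM in DLD1 and 1.76 TPM in HUH7. TFR2 averaged 8.46 TPM in DLD1 and 19.9 TPM in HUH7, and HNF4G 2.72 TPM in DLD1 and 14.7 TPM in HUH7.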
